A study of Rattus norvegicus with 4 samples.

Results

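The anterior pituitary releases 6 classical peptide hormones, and 7 genes encode them. *Gh1* encodes growth hormone and *Prl* prolactin, while *Pomc* encodes the precursor of adrenocorticotropic hormone. Luteinizing hormone, follicle stimulating hormone and thyroid stimulating hormone are each a pair of chains, with the alpha chain from *Cga* in all of them and a beta chain from *Lhb*, *Fshb* or *Tshb* that gives the hormone its identity. The members were taken by symbol from the 30058 genes of the count table, and all 7 were present. In the classical scheme, somatotrophs (S) make growth hormone, lactotrophs (L) prolactin, corticotrophs (C) adrenocorticotropic hormone, gonadotrophs (G) the gonadotropins and thyrotrophs (T) thyroid stimulating hormone. Folliculostellate cells (FSC) of the same gland are regarded as non-endocrine.

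Transcripts were counted by unique molecular identifiers (UMIs) in dispersed anterior pituitary cells of Sprague Dawley rats with a 10x Genomics 3′ kit. Females were in diestrus at post natal day 44 and males were at post natal day 59, and 4 pituitaries per sex were pooled and loaded on 2 lanes. Sex, pool and age therefore cannot be told apart, and the 2 lanes of a sex are technical replicates, so each p-value below sets the gap between the pools against lane spread only. Lanes were matched to sex by their numbers of cells, their replicate numbers are not known, and they are called female a, female b, male a and male b, the order in which values are given. After the authors had equalized mapped reads between lanes, the lanes held 18955509, 20312999, 23425817 and 24048021 UMIs, and 6847 of 7861 barcodes passed quality control, with 8167 to 9546 UMIs in the median cell of a lane. A barcode sequence was shared with another lane in 60 barcodes.

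Cell types were set with the study's marker genes, and hormone genes are among those for S, L, C, G and T. The level of a member in its own type against other types is therefore a description without a test. Sex tests and shares of cells above threshold within these types also rest on cells picked in part by the same genes, with thresholds set within each sex. The part of this picking was not tested, apart from reruns of the sex tests with clusters made without the members. Clusters made without the 7 genes and named by markers other than these held 93.5% to 100% of the cells of each type. Many of those naming markers are also in the marker rules, so this overlap is not independent of them. The cluster of T also held many other cells, since 62.6% of its 155 cells were T by the marker rules. Final cells numbered 1887 S, 484 L, 793 C, 237 G, 85 T, 2315 FSC, 552 leukocytes (Le), 133 endothelial cells (EC) and 361 erythrocytes (E).

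Over all barcodes, the 7 genes together took 15.8%, 16.6%, 15.9% and 16.6% of a lane's UMIs. A lane's share of a member combines the number of producing cells with the level per cell. *Gh1* came to 8.46%, 8.98%, 11.2% and 12.3%. *Prl* came to 4.14%, 3.68%, 1.05% and 0.917%, so that both female lanes were above both male lanes. *Pomc* (2.18%, 2.80%, 2.95% and 2.85%) and *Cga* (0.595%, 0.655%, 0.420% and 0.316%) followed. *Lhb* took 0.420%, 0.410%, 0.103% and 0.0987%, while *Fshb* (0.00998%, 0.0103%, 0.0191% and 0.0228%) and *Tshb* (0.0157%, 0.0227%, 0.174% and 0.109%) were each higher in both male lanes than in both female lanes, and *Fshb* had the lowest share in every lane.

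Each member was highest in the cells named for its hormone, and 6 of the 7 had more than 94% of their UMIs there in both sexes. In S, 98.0% of female and 98.4% of male *Gh1* UMIs were found, with 97.2% and 97.4% of *Prl* in L and 98.8% and 98.6% of *Pomc* in C. In G, the shares were 97.5% and 96.0% for *Lhb* and 98.2% and 98.3% for *Fshb*, and T held 94.3% and 96.7% of *Tshb*. *Cga* differed from the other members, since G and T together held 95.9% of its UMIs in females and 79.6% in males. Of the male *Cga* UMIs, 15.4% lay in FSC, against 1.73% of the female ones.

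**Figure D1:**
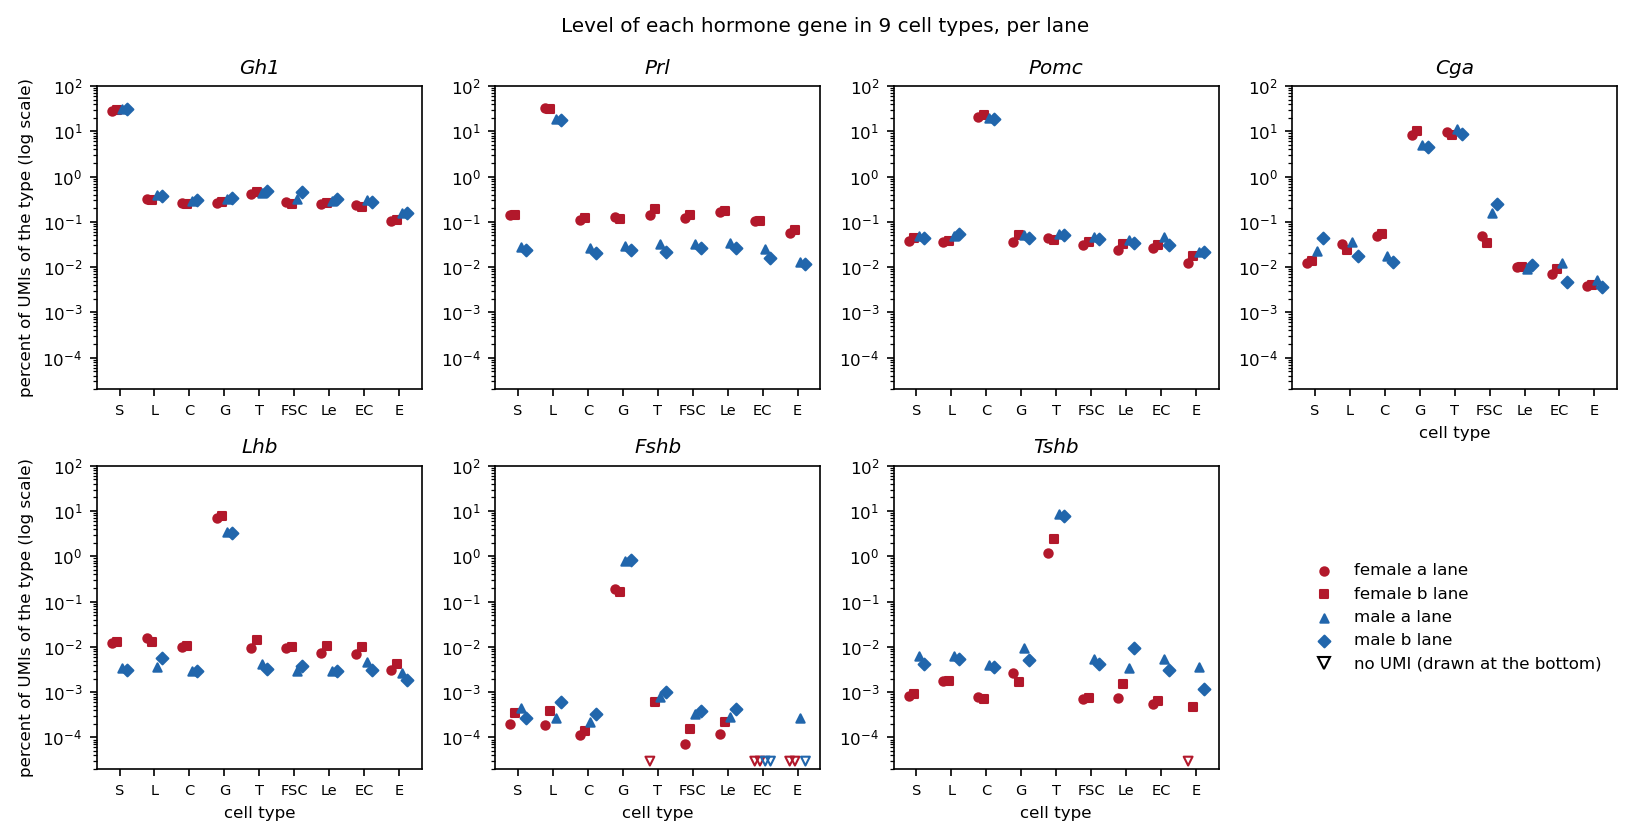
Percent of the UMIs of a cell type that came from each hormone gene (log scale), with 1 point per lane and cell type, and open triangles at the bottom where a lane had no UMI. Each gene stands far above its other types in its producing type, such as *Gh1* at 27.6% to 31.4% in S, and *Cga* has a raised level in male FSC (0.160% and 0.2502%).

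*Gh1* was the most abundant transcript of the set. It took 27.6%, 28.8%, 31.1% and 31.4% of the UMIs of S, and both male lanes were above both female lanes. The difference was small, 1.07-fold higher in males (log2 female minus male -0.09, SE 0.016, adjusted p = 1.5e-05 by edgeR's quasi-likelihood test with Benjamini-Hochberg adjustment), in a fit where 10.8% of 11924 genes passed the limit of 0.001 (5.82% higher in females, 5.02% higher in males). DESeq2 did not call it (adjusted p = 0.178), nor did the test with outlier cells kept (2.5e-03) or with clusters made without the members (1.7e-03). Median UMIs per cell of S were 11565 in females and 15464 in males, and the part of this depth in the difference was not tested. Over cells, *Gh1* ranged from 0.249% to 63.7% in female S, with a median of 25.8%. In male S it ranged from 0.251% to 70.7%, with a median of 31.4%, and 19 female and 21 male cells had more than 50% of their UMIs from this gene. The lowest value of each sex was at the level of non-producing types, below the mean of Le (0.278%) and above that of E (0.130%). The lower end moved more than the upper end, since the 10th percentile was 7.93% in females and 13.9% in males while the 90th was 43.9% and 44.3%. A cell counted as above threshold past a threshold set by Otsu's method, 2.43% of UMIs for *Gh1*, and this held for 96.9% of female and 97.9% of male S. This threshold was set over final cells of both sexes, while typing used thresholds set within each sex. The 27 female and 21 male S below it were not split by how they had been typed.

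*Prl* in L differed between the sexes more than *Gh1* did in S. It took 32.0%, 31.03%, 18.3% and 17.5% of the UMIs of L, which was 5505, 6325, 1539 and 1334 UMIs per cell. No overlap was seen between the sexes. The test gave a 2.76-fold higher level in females (log2 1.46, SE 0.029, adjusted p = 1.46e-29 by edgeR with Benjamini-Hochberg adjustment), the smallest p of the 8611 genes tested, of which 16.8% passed (11.3% higher in females, 5.54% higher in males). As shares of all UMIs the levels differed 1.76-fold, and with library size as the only scaling the log2 difference was 0.81, where the median of all genes was -0.67, against -0.02 in the test. Median UMIs per cell were 18316 in female and 7254 in male L, and without the 7 genes 11778 and 6085, so that depth moved with the difference and its part was not tested. Male L were more unequal than female L. In females the 10th and 90th percentiles were 16.1% and 46.1%, a 2.86-fold range, while in males they were 2.77% and 30.7%, an 11.1-fold range. *Prl* exceeded 50% of a cell's UMIs in 14 female and 0 male L, and it was above its threshold (1.02%) in 99.6% of female and 96.5% of male L.

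The reference promoter of *Prl* is shown because POU1F1, the pituitary factor that drives *Gh1*, *Prl* and *Tshb*, is known for binding AT-rich letters of the form ATGNATA. The sequence is from RefSeq (GRCr8, a later rat assembly than that used for the counts), chr17:38298226-38298250, minus strand, with the motif in capitals starting 24 bases before the gene's start.
*Prl*: ttcctgaatATGAATAagaaataaa
The window searched ran from 250 bases before to 50 after a start, on both strands, and 9.88% of 33469 such windows held ATGNATA. A match is letters only, and it was found in 1 of the 5 members that had a window. *Gh1* and *Fshb* had none. TATAAA, the letters of a TATA box, stood on either strand in the windows of all 5 (*Prl*, *Pomc*, *Cga*, *Lhb* and *Tshb*), against 14.2% of all windows. In *Pomc*, *Cga*, *Lhb* and *Tshb* a match lay on the same strand, 32, 29, 28 and 23 bases before the start. The only match of *Prl* lay on the other strand, 144 bases before the start.

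*Pomc* was nearly alike in the sexes. It took 20.3%, 22.6%, 19.5% and 18.8% of the UMIs of C. Both female lanes were above both male lanes, with means of 21.5% and 19.2%. The 2 female lanes differed from each other by a similar amount. The difference missed the limit (log2 female minus male 0.23, 95% interval 0.12 to 0.33, adjusted p = 0.0112 by edgeR with Benjamini-Hochberg adjustment), and 0.624% of 9937 genes passed in C (0.413% higher in females, 0.211% higher in males). Without female a it passed with a log2 of 0.33 (adjusted p = 3.5e-73) and without female b with 0.11 (3.8e-06), where the 2 male lanes give the spread, while without male a or male b it did not (0.533 and 0.748). Median UMIs per cell of C were 11340 in females and 11500 in males. Cells ranged from 0.0891% to 41.8% in females and from 0.139% to 40.1% in males, and 98.5% and 96.9% were above the threshold of 0.745%. *Pomc* is also the hormone gene of melanotrophs of the intermediate lobe, which were set aside by a marker rule that itself counts *Pomc*. The filters on depth, mitochondrial share and doublets were applied to C and not to melanotrophs, so the levels of the 2 sets are a description. The 3, 1, 24 and 32 melanotrophs of the lanes had *Pomc* at 7.40%, 33.2%, 25.6% and 24.1% of UMIs, and the male lanes, the only ones with more than 3 such cells, were above their C.

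**Figure D2:**
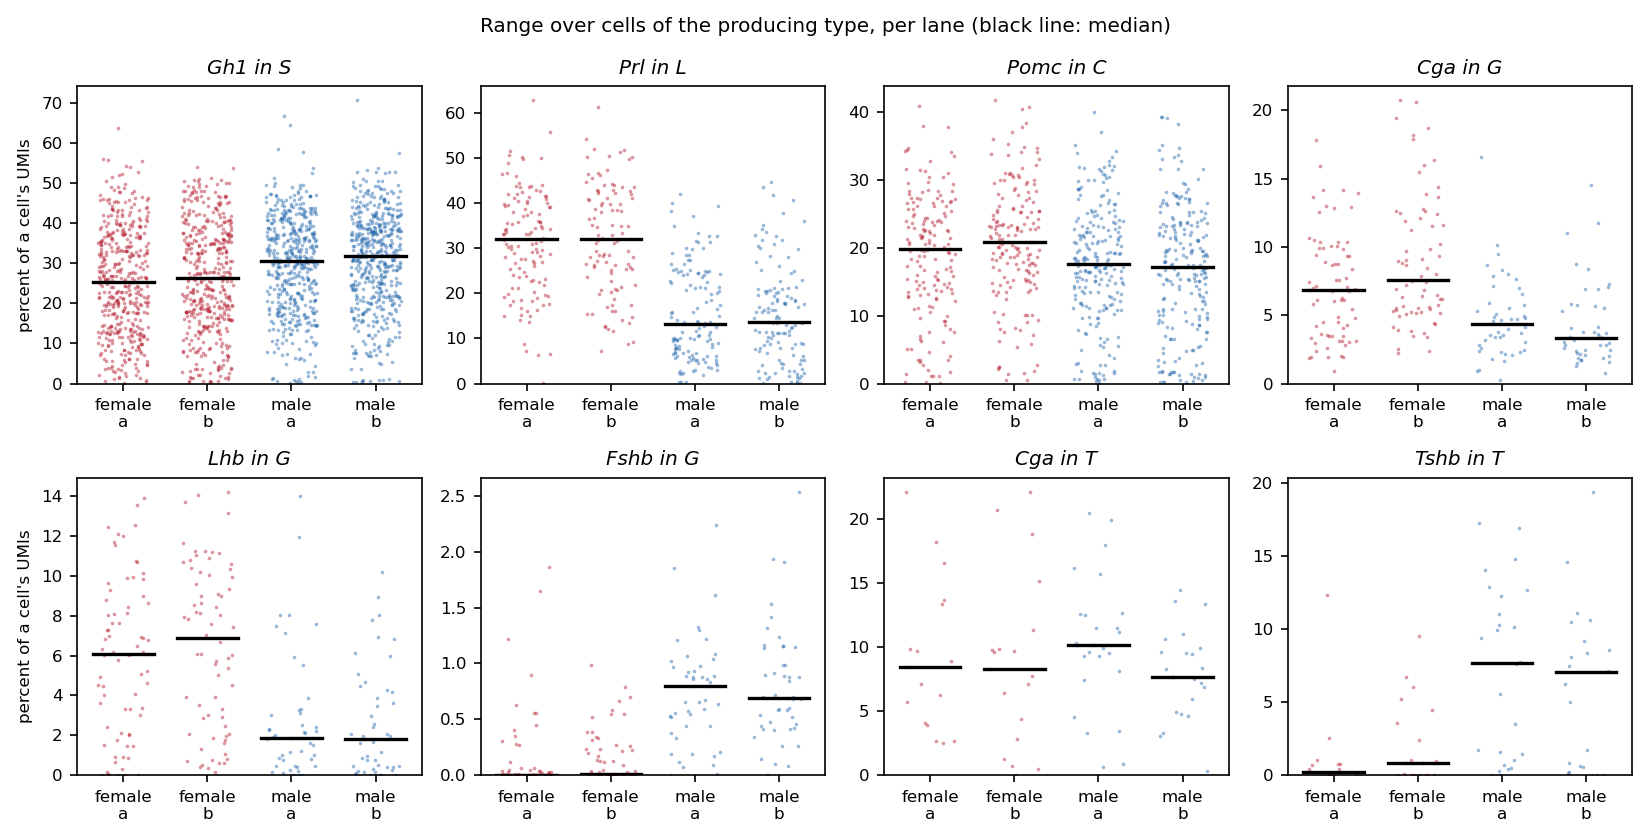
Percent of a cell's UMIs from each hormone gene in the cells of its producing type, per lane, with 1 point per cell and a black line at the median. Medians of *Prl* in L were 31.9% and 32.0% in the female and 13.1% and 13.7% in the male lanes, while the median of *Fshb* in female G lay at or near 0.

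G carries 3 of the members, of which *Cga* and *Lhb* were higher in females and *Fshb* in males. *Cga* took 8.09%, 10.4%, 5.04% and 4.41% of the UMIs of G, *Lhb* 6.99%, 7.80%, 3.45% and 3.22%, and *Fshb* 0.188%, 0.167%, 0.792% and 0.826%. For each gene the lanes of the sexes did not overlap. *Cga* was 2.36-fold higher in females (log2 1.24, SE 0.12, adjusted p = 8.1e-07) and *Lhb* 2.67-fold (log2 1.42, SE 0.10, adjusted p = 1.1e-08), and *Fshb* was 3.80-fold higher in males (log2 female minus male -1.93, SE 0.086, adjusted p = 1.5e-11), all by edgeR with Benjamini-Hochberg adjustment. Of 6862 genes tested in G, 5.46% passed, 3.16% with a higher level in females and 2.3% with a higher level in males. All 3 calls kept their side of the limit in the 10 alternatives run. Median UMIs per cell of G were 12316 in females and 8858 in males, so *Fshb* was higher in the sex with the lower depth and the other 2 genes in the sex with the higher depth.

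The reference promoters of *Cga* and *Lhb* are shown because both genes were higher in female G and both are known targets of NR5A1, the factor that marks gonadotrophs and binds CAAGGNCA. The stretches are from RefSeq (GRCr8), on the plus strand, and capitals mark the motif, which in each lies on the other strand. They are chr5:54283116-54283141, 215 bases before the start of *Cga*, and chr1:105037324-105037349 and chr1:105037392-105037417, 124 and 56 bases before the upstream start of *Lhb*.
*Cga*: ttcataagcTGTCCTTGaggtcacca
*Lhb* at 124: tggcttttcTGACCTTGtctgtctcg
*Lhb* at 56: tctgcttagTGGCCTTGccaccccca
Of all 33469 windows, 6.55% held CAAGGNCA on either strand. *Prl*, *Pomc* and *Tshb* had no match in their windows. *Nr5a1* itself had 218, 166, 153 and 147 CPM (UMIs of the gene scaled to a fixed total) in G, and its sex difference did not pass (log2 0.62, SE 0.16, adjusted p = 0.0110, edgeR with Benjamini-Hochberg adjustment).

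The balance of the 2 beta chains also differed between the sexes. *Lhb* UMIs per *Fshb* UMI in G were 37.2, 46.7, 4.35 and 3.90, and *Cga* UMIs per *Lhb* UMI were 1.16, 1.33, 1.46 and 1.37. The first ratio did not overlap between the sexes, and the second ran from 1.16 to 1.46 over all lanes. Cell by cell, *Fshb* was at 0 UMIs in 74 of 143 female G (51.7%) and in 3 of 94 male G. At least 1 *Fshb* UMI was found in 48.3% of female and 96.8% of male G, at median depths of 12316 and 8858 UMIs, against 0.864% of female and 3.02% of male FSC, at 6359 and 7424. With each cell thinned to 2000 UMIs, which every cell of these types had, the shares in G were 32.2% and 95.7% and those in FSC 0.259% and 0.864%.

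By thresholds, G fell into sets that were filled differently in the sexes. *Lhb* and *Fshb* were both above threshold in 40 of 143 female G (28.0%, exact 95% interval 20.8% to 36.1%) and in 77 of 94 male G (81.9%, 72.6% to 89.1%). *Lhb* alone was above it in 95 female G (66.4%, 58.1% to 74.1%) and in 1 male G (1.06%). *Fshb* alone was above it in 13 male G (13.8%, 7.57% to 22.5%) and in 0 of 143 female G, which allows a share of up to 2.098% by a limit of 3 cells. Neither passed in 8 female and 3 male G, all of which had *Cga* above its threshold. These intervals cover counting error only. Male G also spread widely in *Lhb*, with 10th and 90th percentiles of 0.115% and 7.37%, against 0.666% and 11.2% in females, while *Fshb* in male G ran from 0.154% to 1.31% between the same percentiles.

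Over the cells of G, *Cga* and *Lhb* went together more closely than either did with *Fshb*. Spearman's rho was 0.75 for *Cga* and *Lhb* in 143 female G and 0.50 in 94 male G. It was 0.46 and 0.21 for *Cga* and *Fshb*, and 0.42 and 0.24 for *Lhb* and *Fshb*. The cells share 1 pool and 2 lanes per sex, and counts of *Fshb* are sparse in females, so these are descriptions.

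**Figure D3:**
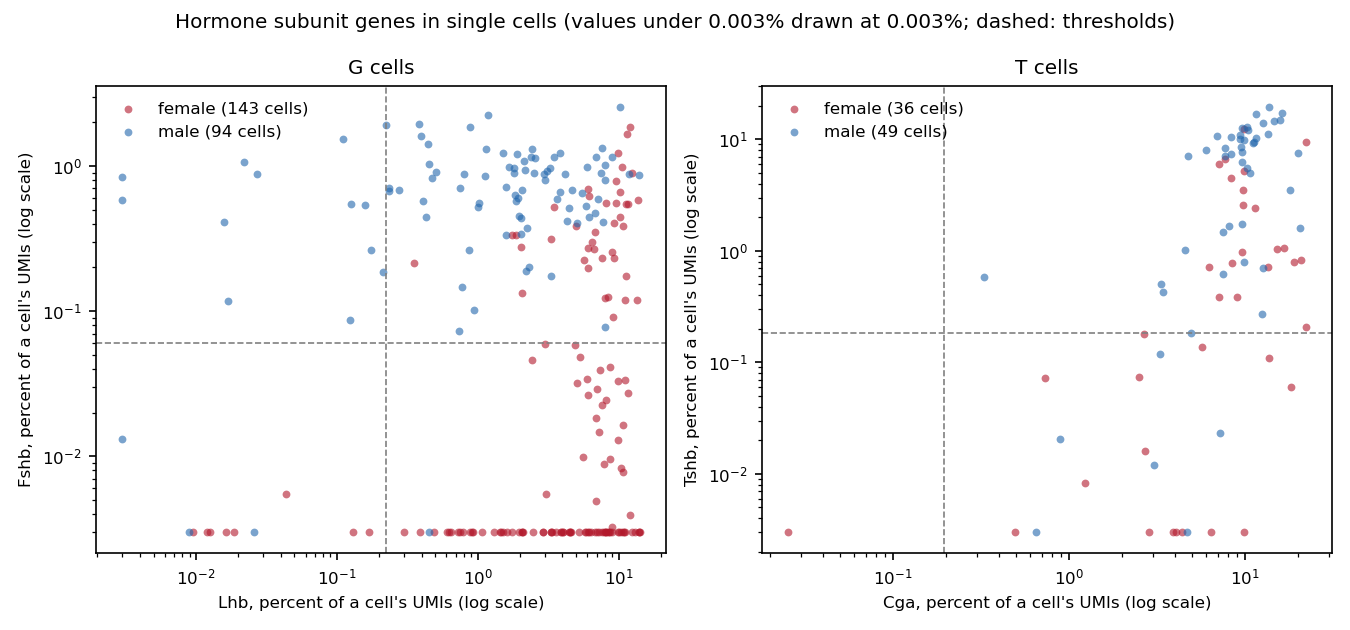
Left, *Fshb* against *Lhb* in each G; right, *Tshb* against *Cga* in each T (percent of a cell's UMIs, log scales, 1 point per cell, dashed lines at the thresholds). In females 95 of 143 G lie right of the *Lhb* threshold and below that of *Fshb*, where 1 of 94 male G lies, and 15 of 36 female T lie below the *Tshb* threshold with *Cga* above its own.

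T carries *Cga* and *Tshb*, and here the beta chain differed between the sexes and the alpha chain did not pass the test. *Tshb* took 1.19%, 2.45%, 8.59% and 7.62% of the UMIs of T and *Cga* 9.45%, 8.25%, 11.1% and 8.64%. Lanes did not overlap between the sexes for *Tshb*, and they did for *Cga*. *Tshb* was 4.80-fold higher in males (log2 female minus male -2.26, SE 0.27, adjusted p = 8.4e-09 by edgeR with Benjamini-Hochberg adjustment), and 1.68% of 3266 genes passed in T (0.582% higher in females, 1.1% higher in males). The call was lost with DESeq2 (adjusted p = 2.6e-03) and with T taken from clusters made without the members (log2 -1.58, adjusted p = 0.033). Without female b the log2 was -2.95. For *Cga* the log2 difference was -0.27 with a 95% interval from -0.81 to 0.26 (adjusted p = 0.674 by edgeR with Benjamini-Hochberg adjustment). Without female a it passed, at -0.36 (adjusted p = 7.7e-04), and with the clusters it had the other sign, at 0.06.

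*Cga* UMIs per *Tshb* UMI in T were 7.93, 3.36, 1.29 and 1.13, so the female lanes also differed from each other. T are few, with 36 female and 49 male cells, at median depths of 6238 and 13809 UMIs. In T, *Nr5a1* was at 26.4, 12.3, 2.65 and 0 CPM and *Neurod1* at 26.4, 24.7, 0 and 0 CPM. *Gnrhr* was at 17.6, 0, 2.65 and 3.31 CPM, and all 3 genes rested on few UMIs. *Pou1f1* was at 96.8, 228, 262 and 271 CPM, and its sex difference did not pass. T were not split by how they had been typed, and whether their make-up differed between the sexes was not tested. *Tshb* was at 0 UMIs in 8 of 36 female T and 2 of 49 male T, and its median per cell was 0.388% and 7.08%. Both *Cga* and *Tshb* were above threshold in 20 of 36 female T (55.6%, exact 95% interval 38.1% to 72.1%) and 42 of 49 male T (85.7%, 72.8% to 94.1%), and the others had *Cga* alone, except for 1 female cell with neither. With each cell thinned to 2000 UMIs, 72.2% of female and 89.8% of male T had a *Tshb* UMI, against 1.30% and 7.94% of FSC, whose median depths were 6359 and 7424. Spearman's rho of *Cga* and *Tshb* over cells was 0.60 in females and 0.70 in males.

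The sex difference of *Cga* was larger in G than in T. The fit had no lane block, although both types came from the same 4 lanes. The interaction of cell type and sex was 1.54 on the log2 scale (SE 0.24, adjusted p = 5.29e-04 by edgeR with Benjamini-Hochberg adjustment), in a fit where 0.39% of 6148 genes passed. It missed the limit without male a (adjusted p = 0.103), without male b (0.034), with clusters (0.012) and with library size as the only scaling (1.2e-03), while its direction stayed the same. As to the levels themselves, the ranges over the 4 lanes overlapped between T (8.25% to 11.1%) and G (4.41% to 10.4%).

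Outside the producing types, the members were low and, except for *Cga*, mostly followed the lane. *Prl* shows this most plainly, since its mean in females was between 0.0614% (E) and 0.166% (Le) in the other 8 types and in males between 0.0121% (E) and 0.0303% (Le). Every female lane was above every male lane in each of these types. *Gh1* UMIs per *Prl* UMI were 1.5, 1.51, 8.51 and 12.2 in Le, 2.23, 1.74, 9.96 and 16.8 in FSC, 2.29, 2.0998, 10.9 and 14.7 in C and 1.82, 1.69, 12.1 and 13.2 in E. The ratio thus differed between lanes and was similar across types within a lane. *Tshb* outside T was likewise higher in males, with means from 0.000595% (EC) to 0.00216% (G) in females and from 0.00377% (C) to 0.00741% (G) in males over C, EC, FSC, G, L, Le and S.

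Taken as a percent of the level over all barcodes of the lane, most members outside their producing types lay at a few percent. *Gh1* was at 2.54% to 4.41% of the lane level (means of 4 lanes) in 7 types and at 1.27% in E. *Pomc* was at 1.20% to 1.78% and at 0.670% in E. E were left out of the tests between types because globin fills their UMIs, and the part of globin in their low shares was not tested. The largest means of the other members were 3.67% for *Prl* in Le, 4.002% for *Lhb* in L, 3.62% for *Fshb* in T and 8.62% for *Tshb* in G, where the lanes ran from 4.81% to 16.7%. *Cga* in FSC, at a mean of 32.6% and lanes of 8.12%, 5.30%, 38.0% and 79.1%, stood apart, and it was 17.1% without male b. Elsewhere mean *Cga* was 6.12% in C, 5.84% in S (up to 13.9%) and 5.76% in L. It was 2.23% in Le, 1.73% in EC and 0.911% in E. Whether these UMIs came from free RNA was not tested. *Fshb* had no UMI in EC, which allows up to 0.000808% to 0.00154% of a lane's EC UMIs.

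**Figure D4:**
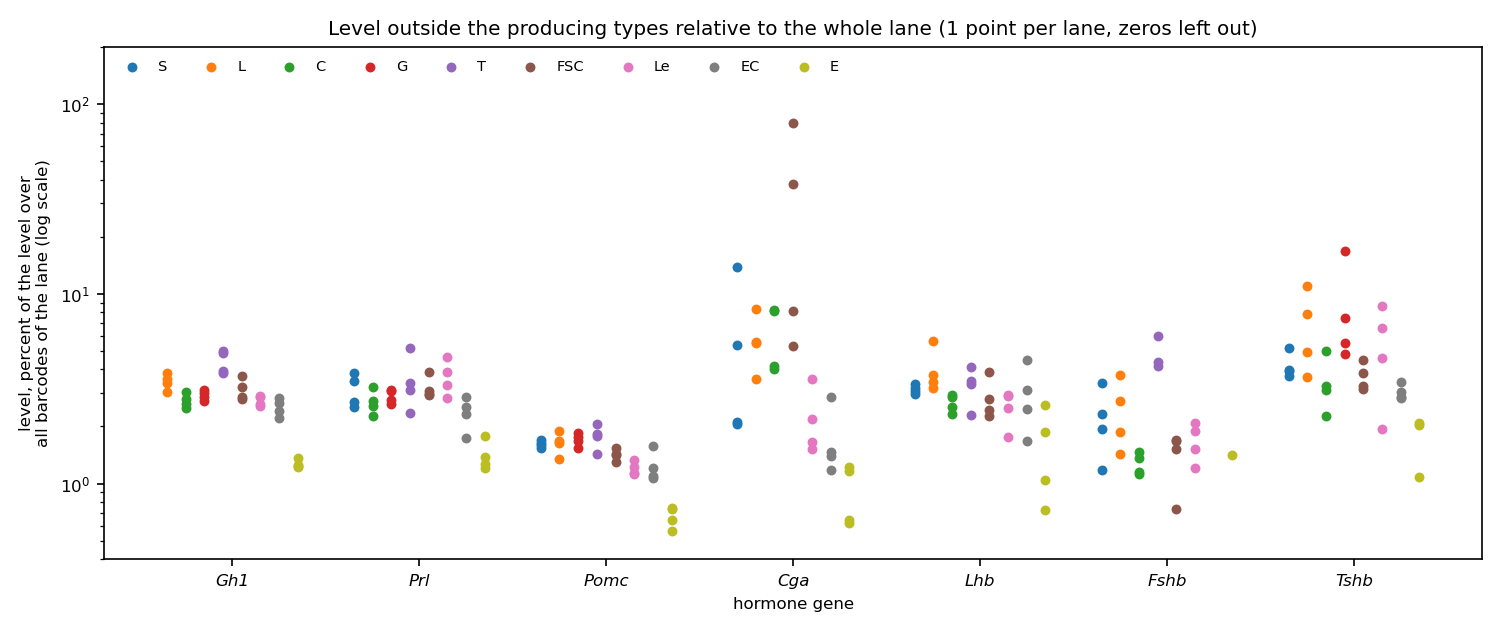
Level of each hormone gene in the types that do not produce it, as percent of its level over all barcodes of the same lane (log scale, 1 point per lane, zeros left out). E has the lowest mean for *Gh1* and *Pomc*, and *Cga* in FSC reaches 38.0% and 79.1% in the male lanes.

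By lane ranges over both sexes, the order of the non-producing types was mostly not resolved. For *Gh1*, T (0.444%) was above L (0.351%) with lane ranges that did not overlap, and L, FSC, G, Le, C and EC followed with overlapping ranges from 0.351% down to 0.257%. E came last at 0.130%. For *Prl*, *Lhb* and *Tshb* all neighbours outside the producing type overlapped in their lane ranges, as the sexes differed in all of them. Within a sex, *Prl* in E and EC did not overlap. The lanes of E were at 0.0571%, 0.0656%, 0.0127% and 0.0116%, and those of EC at 0.105%, 0.105%, 0.0245% and 0.0160%. For *Cga* the order below T and G was FSC (0.123%), C (0.0330%), L (0.0273%), S (0.0231%), Le (0.0101%), EC (0.00820%) and E (0.00417%), and only S and Le did not overlap among these neighbours.

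Le, which are not pituitary cells, served as a reference for FSC and EC. The marker rules of FSC, EC and Le use no hormone gene. Cells that also met the rule of a hormone-producing type had been set aside, at thresholds set within each sex. Hormone genes thus had a part in which cells were kept, also for the sex test of *Cga* in FSC below, and this part was not tested. *Cga* was 6.74-fold higher in FSC than in Le (log2 2.75, SE 0.17, adjusted p = 1.6e-22 by edgeR with Benjamini-Hochberg adjustment, lane as block), and it was higher in 4 of 4 lanes. In this fit 52.1% of 12520 genes passed, 28.7% with a higher level in FSC. *Prl* was lower in FSC (log2 -0.76), as was *Tshb* (-0.99), while *Gh1* (-0.37) and *Pomc* (-0.32) were called lower but turned positive with library size as the only scaling (0.19 and 0.24). With that scaling *Prl* missed the limit (-0.19, adjusted p = 0.0110, edgeR), and *Tshb* missed it there (-0.40), with DESeq2 (-0.90) and without male b (-0.35, adjusted p = 0.245), while without male a it was -1.57. *Lhb* did not pass (-0.40, adjusted p = 6.5e-03) and *Fshb* was removed by the filter on low counts. In EC against Le, *Gh1* (-0.76), *Prl* (-1.27), *Pomc* (-0.60) and *Cga* (-0.91) were called lower, in a fit where 39.9% of 7781 genes passed, and with library size only *Prl* alone was called and *Pomc* turned positive (0.05). The call of *Cga* in EC was lost in 5 of 7 alternatives. *Cga* was thus the member whose level in FSC was above that in Le under each scaling tried.

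The level of *Cga* in FSC differed between the sexes in the opposite direction to G. It was 0.0483%, 0.0348%, 0.160% and 0.2502% of the UMIs of FSC, against 0.00991%, 0.00999%, 0.00915% and 0.0113% in Le. The male lanes were above the female lanes in FSC, and in Le the sexes were close. This comparison was added after the levels were seen. *Cga* in FSC was 4.81-fold higher in males (log2 female minus male -2.26, SE 0.14, adjusted p = 2.3e-10 by edgeR with Benjamini-Hochberg adjustment), where 3.49% of 12907 genes passed (2.08% higher in females, 1.4% higher in males). The log2 difference was -1.37 with outlier cells and doublets kept (adjusted p = 7.2e-05) and -1.48 with clusters made without the members, where it missed the limit (4.9e-03). The interaction of cell type and sex between G and FSC was 3.53 on the log2 scale (SE 0.22, adjusted p = 1.35e-10, same test), where 2.33% of 12699 genes passed, and it held in the 10 alternatives run.

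A minority of FSC held more than 50% of these UMIs in 3 of the 4 lanes. *Cga* was above its threshold (0.195% of UMIs) in 22 of 554, 27 of 603, 85 of 556 and 130 of 602 FSC, or 3.97%, 4.48%, 15.3% and 21.6%. Over lanes this was 4.24% of female FSC (exact 95% interval 3.15% to 5.56%) and 18.6% of male FSC (16.4% to 20.9%), against 0 of 263 female Le, which allows up to 1.14% by the same limit, and 1 of 289 male Le. Those FSC held 54.6%, 38.0%, 80.2% and 88.9% of the *Cga* UMIs of their type. In the remaining FSC *Cga* was at 0.0228%, 0.0223%, 0.0361% and 0.0343%, still above Le. The highest cell had 301, 81, 1033 and 1333 *Cga* UMIs in the 4 lanes.

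The beta chains stayed low in these cells. Cells that met the rule of FSC and also that of G or T, which count the beta chains, had been set aside. Typing can thus have a part in these low levels, which was not tested. *Lhb* was at 0.00850%, 0.00832%, 0.00123% and 0.00302% in FSC above the *Cga* threshold and at 0.00956%, 0.0101%, 0.00313% and 0.00403% in the other FSC. *Tshb* was at 0.000653%, 0.00128%, 0.00736% and 0.00402% against 0.000710%, 0.000719%, 0.00527% and 0.00419%. In the female lanes *Tshb* rested on few UMIs, with 29 in female a and 33 in female b over all FSC. *Fshb*, whose counts are sparse here, had no UMI in female a and was at 0.000640%, 0.000767% and 0.000302% in the other lanes, against 0.0000761%, 0.000139%, 0.000261% and 0.000403%. *Lhb* was lower than in other FSC in 4 of 4 lanes, while *Tshb* and *Fshb* were each higher in female b and male a and lower in the other two. Median UMIs per cell above the *Cga* threshold were 5924, 5345, 6303 and 6604, below the 6311, 6508, 7820 and 7579 of other FSC, and called doublets had been removed from all types. Marker genes of FSC were present in them, with *Fxyd1* at 575, 512, 535 and 460 CPM against 564, 633, 594 and 635, and *Capn6* at 438, 473, 463 and 400 CPM against 484, 456, 454 and 432. The other markers of FSC were lower in 4 of 4 lanes, *Gstm2* at 529, 505, 661 and 542 CPM against 648, 701, 741 and 756, and *S100b*, a calcium binding protein, at 418, 736, 889 and 834 CPM against 1264, 1418, 1144 and 1248. *Gnrhr*, the receptor of gonadotropin releasing hormone, rested on few UMIs in these cells in each lane. It was at 13.1, 6.40, 6.13 and 4.02 CPM, above the 2.54, 0.927, 1.31 and 0.710 CPM of other FSC and below the 863 to 1074 CPM of G. Markers of hormone-producing cells were also higher in 4 of 4 lanes, *Resp18* at 124, 109, 221 and 233 CPM against 88.8, 80.2, 173 and 124, *Chgb* at 39.2, 32.0, 69.0 and 28.2 CPM against 18.3, 17.6, 27.0 and 22.7, and *Uchl1* at 32.7, 32.0, 33.7 and 47.3 CPM against 18.5, 18.8, 29.4 and 20.8. In the female lanes, with 22 and 27 cells above the threshold, *Chgb* and *Uchl1* also rested on few UMIs. The factor gene *Isl1* was higher in 4 of 4 lanes too, at 118, 249, 144 and 130 CPM against 99.96, 87.4, 74.0 and 91.6, and *Scg2*, the remaining hormone cell marker, was higher in 3 of 4. The part of RNA from hormone-producing cells in these values was not tested.

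*Gpha2* encodes another glycoprotein hormone alpha chain and was a gene of FSC, and it was low where *Cga* was high. It was at 137, 1804, 173 and 235 CPM in FSC above the *Cga* threshold and at 2919, 2888, 2440 and 2456 CPM in the other FSC. *Gpha2* was above its threshold in 8 of the 49 female cells (16.3%, against 41.7% of other FSC) and in 24 of the 215 male cells (11.2%, against 38.0%). The genes compared within FSC were chosen after their values were seen, and the cells were chosen by *Cga*, so no test was made.

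**Figure D5:**
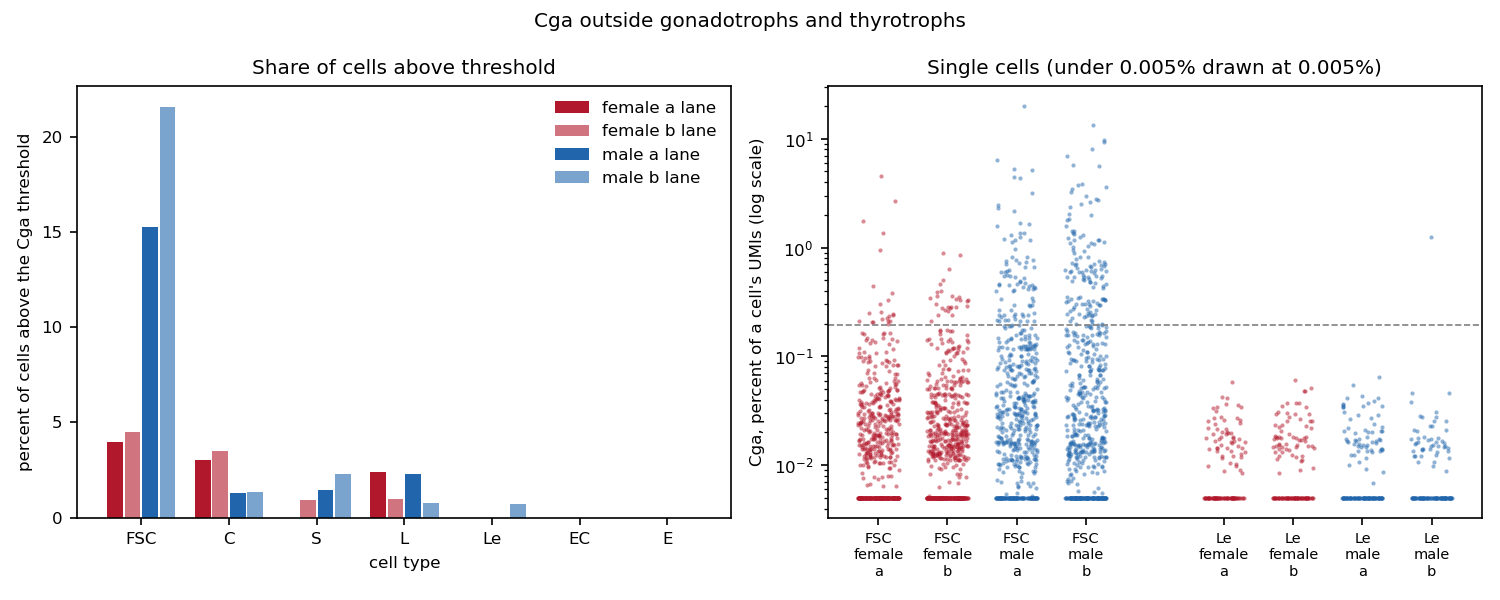
Left, percent of cells of each non-producing type above the *Cga* threshold, per lane (bars start at 0); right, *Cga* as percent of the UMIs of each FSC and Le (log scale, 1 point per cell, dashed line at the threshold). FSC reach 15.3% and 21.6% in the male lanes against 3.97% and 4.48% in the female lanes, and 1 of 552 Le lies above the line.

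In C, *Cga* went the other way. It took 0.0490%, 0.0529%, 0.0175% and 0.0126% of UMIs, 3.53-fold more in females (log2 1.82, SE 0.088, adjusted p = 1.7e-17 by edgeR with Benjamini-Hochberg adjustment, also added after the levels were seen), and the call held in the 10 alternatives run. In the female lanes few cells held most of it, and in the male lanes they did not. The 5, 6, 3 and 3 C above the threshold held 70.8%, 63.9%, 18.3% and 22.2% of the *Cga* UMIs of C, and in the other C *Cga* was at 0.0147%, 0.0199%, 0.0145% and 0.00992%. These cells had *Pomc* at 16.7%, 25.8%, 17.9% and 7.18% of UMIs, within the range over C. In S, 0, 4, 7 and 12 cells were above the *Cga* threshold, and *Gh1* was at 1.52%, 2.17% and 2.72% of UMIs in those of female b, male a and male b against 29.0%, 31.5% and 31.9% in the other S.

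Some levels rested on a single cell. In male b, 1 FSC had 3509 *Gh1* UMIs, and without it *Gh1* in FSC of that lane fell from 0.454% to 0.388%. Another cell of male b, typed as Le, had 47 *Cga* and 41 *Tshb* UMIs, and without it *Tshb* in Le of that lane went from 0.00935% to 0.00497% and *Cga* from 0.0113% to 0.00626%.

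Of the 21 pairs of members, 4 share a producing type. *Cga* and *Lhb* were both above threshold in 213 final cells, *Cga* and *Fshb* in 130, and *Lhb* and *Fshb* in 117, all of them G. *Cga* and *Tshb* were together in 63 cells, 62 of them T. The other 17 pairs were rare, and 12 of them were found in 0 of 6847 final cells. *Lhb* and *Tshb*, and *Fshb* and *Tshb*, were among these 12. The most frequent was *Pomc* and *Cga*, in 16 final cells, 15 of them C. *Prl* and *Cga* were together in 8 L, *Gh1* and *Cga* in 7 cells (5 S and 2 FSC), *Gh1* and *Prl* in 3 S and *Prl* and *Pomc* in 1 L.

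The pairs of abundant hormones were more frequent before quality control. Over all 7861 barcodes, *Gh1* and *Pomc* were together in 27, of which 26 were called doublets or met the rules of more than 1 type, and the median depth of the 27 was 22729 UMIs. *Gh1* and *Prl* were together in 12 barcodes, 9 of them so removed, and *Prl* and *Pomc* in 12, 10 of them removed. For *Pomc* and *Cga* this was 2 of 21 barcodes, whose median depth was 10733 UMIs. Cells of more than 1 hormone gene were thus in part set aside by rules that use these genes, and the counts of final cells are not independent of them.

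Genes with the pattern most like a member over types were found by Pearson's r over 36 UMI sums (9 types in 4 lanes, log2 of CPM + 1), which share lanes and, in part, the genes that set the types. *Gh1* was most like *Mir551b* (0.97), *Ghrhr* (0.97), the receptor of growth hormone releasing hormone and itself part of the rule for S, and *LOC102551041*. *Prl* was most like *Krt25* (0.93), *Agtr1b* (0.92), an angiotensin receptor in the rule for L, and *Grin3a* (0.91), a glutamate receptor subunit. For *Pomc* these were *LOC102551166* (0.99), *LOC100361444* and *Amtn* (both 0.98). *Cga* was most like *Kcnk3* (0.93), a potassium channel, *Tmeff2* and *Chrna9* (both 0.92). *Lhb* was most like *Trim50* (0.95), *Bmper* (0.95) and *Klhl40* (0.94), and *Fshb* like *LOC102554304* (0.96), *Bmper* (0.96) and *Chrna4* (0.95). The values were lowest for *Tshb*, with *Calb2* (0.86), *LOC103690158* (0.85) and *Rxrg* (0.84), a retinoid receptor.

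Within a producing type, genes were ranked by Spearman's rho with the member over cells, computed in each sex on counts divided by the cell's total without the 7 genes and averaged. *Prl* in L went most with the secretory granule genes *Resp18* (0.66), *Chgb* (0.61) and *Scg5* (0.58), and *Pomc* in C with *Cpe* (0.59), a carboxypeptidase that trims hormone precursors, *Rps2* (0.47) and *Cd63* (0.46). For *Gh1* in S the averages were low, with *Cd63* (0.38), *Dlk1* (0.37) and *RGD1566401* (0.31) at the top. They were 0.52, 0.53 and 0.38 in females and 0.25, 0.22 and 0.24 in males. *Ssr4*, a part of the translocon of the endoplasmic reticulum, was first for both *Cga* (0.64) and *Lhb* (0.64) in G. *Spint2* (0.57) and *Rnasek* (0.49) followed for *Cga*, and *Tgfbr3l* (0.62), which encodes a coreceptor for inhibin B, and *Sdf2l1* (0.50) for *Lhb*. *Fshb* in G went with *Scg2* (0.51), a granin, and with the protein disulfide isomerase genes *Pdia6* (0.44) and *Pdia3* (0.44). In T, *Cga* went with *Scg2* (0.70), *Resp18* (0.54) and *Spint2* (0.54), and *Tshb* with *Pdia3* (0.70), *Chgb* (0.69) and *Fkbp2* (0.69). These values of T rest on 36 female and 49 male cells, against 877 and 1010 in S. The median over the 4342 to 5125 genes ranked lay between -0.02 and 0.04 in each case.

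The lowest values were those of *Rpl41* (-0.35), *Hist3h2ba* (-0.29) and *Bsg* (-0.27) for *Gh1*, of *Rpl13a* (-0.44), *Rpl21* (-0.39) and *RGD1560394* (-0.38) for *Prl*, and of *Ly6h* (-0.45), *Il18bp* (-0.35) and *Stmn1* (-0.35) for *Pomc*. In G they were *Gstm7* (-0.36), *Gng3* (-0.34) and *Pebp1* (-0.33) for *Cga*, *Stmn1* (-0.45), *Psme1* (-0.43) and *Pebp1* (-0.41) for *Lhb*, and *Pebp1* (-0.36), *Hmgn2* (-0.30) and *LOC100912195* (-0.29) for *Fshb*. In T they were *Dapl1* (-0.47), *Rbm26* (-0.44) and *H3f3b* (-0.44) for *Cga*, and *Fos* (-0.52), *H3f3b* (-0.52) and *Kcnk2* (-0.49) for *Tshb*. The dissociation of the tissue can induce *Fos*, and its part in these values was not tested.

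The genes that act on hormone genes or their products were followed in a list of 33, made of 13 transcription factors, 10 receptors of releasing or inhibiting factors, 6 nuclear receptors and 4 processing enzymes. In S, 22 were tested and 11 passed, 4 higher in females and 7 higher in males (50% of those tested, against 10.8% of all genes, 5.82% and 5.02% by direction), with a median log2 of -0.09 against -0.01 over all genes. *Pgr*, the progesterone receptor, had 14.3, 9.96, 1.97 and 3.04 CPM (log2 2.32, SE 0.26, adjusted p = 6.4e-09), and *Nr4a1*, an immediate early transcription factor, had 51.2, 55.4, 220 and 250.8 CPM (-2.09, SE 0.072, 1.8e-22), both by edgeR with Benjamini-Hochberg adjustment. *Pcsk2*, a convertase, was higher in female S (log2 1.66) and *Gata2* in male S (-1.45). *Ghrhr* was higher in females too, at 55.1, 54.2, 34.1 and 34.7 CPM (log2 0.72, SE 0.089, adjusted p = 6.3e-08, edgeR).

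In L, 17 of the 33 were tested and 6 passed, 3 in each direction (35.3%, against 16.8% of all genes, 11.3% and 5.54% by direction). Among those called higher in females, *Cpe* (log2 0.44) had 898, 893, 1019 and 1050 CPM. *Pam*, a processing enzyme (log2 0.51), had 209, 209, 220 and 242 CPM. Scaled by library size only, as CPM are, both were thus lower in both female lanes. *Pcsk2* had 2.81, 0.962, 15.4 and 21.7 CPM (log2 -2.63, SE 0.48, adjusted p = 3.7e-05 by edgeR with Benjamini-Hochberg adjustment), and it missed the limit without female b (4.2e-03), without male b (4.1e-03) and with DESeq2 (0.015). *Thra*, a thyroid hormone receptor, was higher in males (log2 -1.11), as was *Nr4a1* (-1.01). *Pcsk1*, the other convertase, was called higher in females (log2 0.91), a call that 7 of 10 alternatives did not keep, and *Drd2*, the dopamine receptor that restrains prolactin, did not pass, with a log2 of 0.11 (SE 0.18). In C, 19 were tested and *Nr4a1* alone passed (5.26%, against 0.624% of all genes), at 131, 123, 55.5 and 61.3 CPM, higher in females (log2 1.18, SE 0.11, adjusted p = 1.2e-09, edgeR). *Nr4a1* was thus called in opposite directions in C and in S and L. As for *Fos*, the part of tissue dissociation in the values of *Nr4a1* was not tested in any type.

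In G, 21 were tested and 4 passed (19.0%, against 5.46% of all genes). *Pgr* had 98.6, 107.8, 18.2 and 12.6 CPM, 8.12-fold more in females (log2 3.02, SE 0.30, adjusted p = 6.4e-07 by edgeR with Benjamini-Hochberg adjustment). *Neurod4*, a helix-loop-helix factor (log2 2.38), and *Cpe* (0.89) were higher in females, and *Gata2*, a factor of gonadotrophs and thyrotrophs, was higher in males, at 142, 126, 410 and 394 CPM (log2 -1.32, SE 0.13, adjusted p = 7.4e-07, edgeR). *Gnrhr* did not pass, at 863, 998, 948 and 1074 CPM (log2 0.15, SE 0.11). In T, 17 were tested and 2 passed (11.8%, against 1.68% of all genes), *Nr4a1* higher in males (log2 -2.30, SE 0.32) and *Gata2* higher in females (1.29, SE 0.25), at 475, 296, 151 and 132 CPM. *Gata2* lost its call in 7 of 10 alternatives and *Nr4a1* in 2, and without female b *Nr4a1* was at -3.87. *Trhr*, the receptor of thyrotropin releasing hormone, was at 52.8, 37.0, 106.1 and 72.8 CPM in T and did not pass (log2 -1.17, SE 0.48).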

How the data were processed

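The authors aligned and counted the reads with Cell Ranger (2.1 in the submitters' processing notes) against an NCBI rat reference with extended 3′ ends and deposited UMI counts per gene and cell for 4 lanes in 1 table. The lanes had been aggregated in the mapped mode, which equalizes mapped reads between lanes, so lane totals are not the sequenced depth, and no further normalization was applied. Lanes were told apart by barcode suffix and matched to sex by the study's cells per lane. Cell types followed the study's marker rules with Otsu thresholds, rebuilt here with Python 3.11.15. Of 7861 barcodes 1014 were removed, among them 191 that met several rules, 278 mitochondrial and 331 depth outliers and 189 doublets called against synthetic doublets. UMI sums per lane and type were tested with edgeR 4.0.16 (quasi-likelihood, TMM factors, minimum count 10, 2-sided, Benjamini-Hochberg adjustment over all genes tested, limit 0.001), with DESeq2 1.42.0 as an alternative, after a test on simulated data. Clusters without the members were made with scanpy 1.11.5 and leidenalg 0.10.2. Exact intervals on shares of cells cover counting error only. Intervals on log2 differences come from the edgeR fits and cover spread between lanes, not between animals.

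The members and lists were chosen with earlier results of these data known. Named genes were all members, for each the 3 most like it over types and the 3 highest and 3 lowest in Spearman's rho within its type, and at most 4 called genes of the list of 33 per type, by fold. *Nr5a1*, *Ghrhr*, *Drd2*, *Gnrhr*, *Trhr*, *Neurod1* and *Pou1f1* in T, *Cpe* and *Pam* in L, and the genes compared within FSC were named outside this rule, after their values were seen.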

Additional observations from a re-analysis of the deposited data

Results flagged for a closer look

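The sex difference of *Cga* was not the same in the cell types that had it. Between G and T it differed by 1.54 on the log2 scale, and between G and FSC by 3.53, each tested by an interaction term of cell type and sex in edgeR's quasi-likelihood fit. The comparison with FSC was added after the levels were seen. The sexes are 1 pool each, of different ages, so sex, pool and age cannot be told apart.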

How the results depend on the processing

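The sex differences of *Prl* in L and of *Cga*, *Lhb* and *Fshb* in G kept their direction and their side of the limit in the 10 alternatives run. Where a result did not, the cause was not tested. *Gh1* in S missed the limit with DESeq2 (log2 -0.086), with outliers and doublets kept (-0.076) and with clusters made without the members (-0.094), and ranged from -0.14 to -0.04 with each lane left out. *Pomc* in C passed without the filter on low counts (0.20) and with the clusters (0.25), and ranged from 0.11 to 0.33 with each lane left out. *Tshb* in T missed it with DESeq2 (-2.26) and the clusters (-1.58), with -2.95 to -1.82 over lanes left out, and *Cga* in T ranged from -0.48 to -0.072. The interaction of G or T and sex for *Cga* missed it with library size only (1.12) and with the clusters (1.23), and ranged from 1.30 to 1.82. *Cga* in FSC, a result added after seeing the data, missed it with the clusters (-1.48). With library size only, *Gh1* (0.19) and *Pomc* (0.24) in FSC against Le and *Pomc* in EC against Le (0.047) turned positive. *Lhb*, not called in either contrast, kept its direction in 6 of 7 alternatives in each, with highest values of 0.16 in FSC and 0.084 in EC.

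Genes of the list of 33 called in L were 6, or 3 with DESeq2 and 4 to 6 with lanes left out. In C there was 1, or 2 without the filter and 2 with the clusters, and 1 to 3 with lanes left out. In G there were 4, or 7 without the filter. In T there were 2, or 0 with DESeq2, 1 with outliers kept and 0 with the clusters, and 1 to 3 with lanes left out. Members called in FSC against Le were 5, or 2 with DESeq2 and 1 with library size only, and 3 to 5 with lanes left out. In EC against Le they were 4, or 2 and 1, and 2 to 5. In the main fits 16.8% of all genes passed in L, 0.624% in C, 5.46% in G and 1.68% in T. The share was 52.1% in FSC against Le and 39.9% in EC against Le. With library size only, calls over all genes went from 6529 to 7718 in FSC against Le and from 3103 to 3660 in EC against Le. Shares over all genes in the other settings are not given here, so changes in these counts cannot be set against them.

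Of all calls, the percent higher in females was 53.7 in S, 67.1 in L, 57.9 in G and 59.8 in FSC. With library size only it was 44.0, 12.6, 31.8 and 51.1, and with library sizes without the 7 genes 30.2, 30.1, 46.6 and 49.8. The percent above 0 went from 58.3 to 15.4 and 47.8 in the interaction of G or T and sex, and with library size only from 55.0 to 74.7 in FSC against Le and from 47.5 to 72.2 in EC against Le. No paired analysis was possible between the sexes because the lanes carry no replicate number, and the replicate block was not run. Cell types of the same lane can be paired without that number, and FSC against Le was fitted with lane as block. The interaction fits of cell type and sex had no lane block, and their results with such a block were not tested. Sparse counts limit *Fshb* and *Tshb* outside their types, and 36 female and 49 male cells limit T.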
